A study of Mus musculus with 18 samples.

Results

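Cadherins are single-pass membrane proteins that hold neighbouring cells together through calcium-dependent binding of their outer domains, and catenins are the proteins that bind the cytoplasmic tails of cadherins. Of the transcripts described here, 4 encode classical cadherins (Cdh1, Cdh2, Cdh3 and Cdh11), 3 encode catenins (Ctnna1, Ctnnd1 and Jup), 2 encode desmosomal cadherins (Dsc2 and Dsg2) and 1 encodes a plakophilin (Pkp1), a desmosomal plaque protein of the p120 catenin family. In the adherens junction the cadherin tail binds β-catenin or plakoglobin, α-catenin links that complex to actin, and p120-catenin (Ctnnd1) holds the cadherin at the membrane. In the desmosome, desmocollins and desmogleins bind plakoglobin (Jup) and plakophilins, which tie the junction to keratin filaments. The mammary epithelium carries E-cadherin (Cdh1) in its luminal cells and P-cadherin (Cdh3) in its myoepithelial cells. N-cadherin (Cdh2) and cadherin-11 (Cdh11) are best known from neural and mesenchymal cells.

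All probes whose gene name in the scanner files of the KI tumours was one of these 10 genes, or an older symbol of one, were taken, which gave 20 of 41174 probes and 10 of 28919 named genes. The older names Catna1 and 2010010M04Rik led to Ctnna1, and Catns led to Ctnnd1. Cdh1, Jup and Pkp1 had 1 probe each, Cdh2, Cdh3, Ctnna1 and Ctnnd1 had 2, and Cdh11, Dsc2 and Dsg2 had 3. Probes of a gene are numbered by their mean signal over both channels of the KI arrays, brightest as probe 1. The sample channel was well above background for all 20 probes on 10 of 10 KI arrays, and none was saturated. The reference channel of Dsc2 probe 3 was above background on 5 of these 10 arrays.

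The study set 5 single mammary tumours from ErbB2 knock-in mice (KI) and 2 pools of 5 NIC mammary tumours each beside 2 whole normal mammary glands. All tissue was flash frozen, and the mice were female and of the FVB/N background. The labels name the normal glands FVBmg.10 and FVBmg.18PI and do not say what the codes stand for or whether the glands were in the same state. The labels also give no age, do not spell out NIC, and name neither the promoter that drives the ErbB2 or NIC allele nor the cells in which it acts. Each RNA was hybridised on 2 arrays against a common mouse reference RNA with the dyes exchanged, so that 9 RNA samples gave 18 arrays. A level here is the log2 ratio of sample over reference RNA, averaged over the dye pair, and every difference is on that log2 scale. Levels of different probes are not compared, because each ratio depends on what the reference RNA holds for that probe. The labels do not say whether the 2 normal glands came from separate mice, so a p-value covers no more than the spread among the RNA samples used, which may be technical.

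Whole tissue was profiled, and its cell content differed between the groups. The median level of 12 luminal epithelial markers lay between 2.29 and 2.93 in KI tumours and between 2.42 and 2.60 in NIC pools, against 0.26 to 0.34 in normal glands. The median of 11 adipocyte markers lay between −0.12 and 0.35 in KI tumours and between −0.01 and 0.26 in NIC pools, against 3.60 to 3.88 in normal glands. In such tissue, fewer cells of a type and less RNA per cell cannot be told apart. The KI arrays lie in a value table and platform record of their own, so the table and the KI group cannot be told apart in any comparison of KI tumours with the other groups. Over all probes, RNA samples correlated across the 2 tables at r = 0.615 to 0.789 between KI tumours and NIC pools.

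Against the normal glands, 10 of the 20 probes rose in NIC pools and none fell (limma, adjusted p under 0.05). Over all probes, 9.82% rose and 8.62% fell in that comparison. In KI tumours 11 of the 20 probes rose over the normal glands and none fell, where 20.1% of all probes rose and 22.2% fell. Between the tumour kinds, 1 of the 20 probes was higher and 3 were lower in KI tumours than in NIC pools, against 3.02% and 3.97% of all probes. At an unadjusted p under 0.05 the number of member probes that differed was 12 for NIC against normal, 11 for KI against normal and 4 for KI against NIC. Over all 41174 probes these numbers were 16083, 20940 and 9513, so the members' counts for KI against normal and KI against NIC lie near the share over the whole array. Without NIC pool 1 or NIC pool 2 no probe of the whole array was called for NIC against normal. Without either normal gland, Ctnnd1 probe 1, Jup and the 3 Dsc2 probes were still called, while Cdh1, Ctnna1 probe 2 and the 3 Dsg2 probes were not (adjusted p from 0.0617 to 0.0996). The genes with at least 1 risen probe were the desmosomal cadherin genes, the catenin genes and Cdh1, joined in the KI tumours by Pkp1 and by 1 of the 3 Cdh11 probes, while Cdh2 and Cdh3 had no called probe in any comparison.

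With 1 probe per gene, the brightest, 5 of 10 genes rose and none fell in NIC pools, against 8.47% and 9.52% of all genes. For KI tumours over normal glands the same count was 6 higher and none lower, against 17.7% and 24.8% of all genes. Between KI tumours and NIC pools 1 gene was higher and 1 lower in KI tumours, against 3.09% and 3.43% of all genes. The median difference of the 20 member probes was 0.52 for NIC over normal, 0.54 for KI over normal and 0.13 for KI over NIC. Over all probes these medians were −0.02, 0.01 and 0.00. The members were chosen with earlier results of these arrays known, so these counts describe them and do not set them apart from other gene groups.

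**Figure D1:**
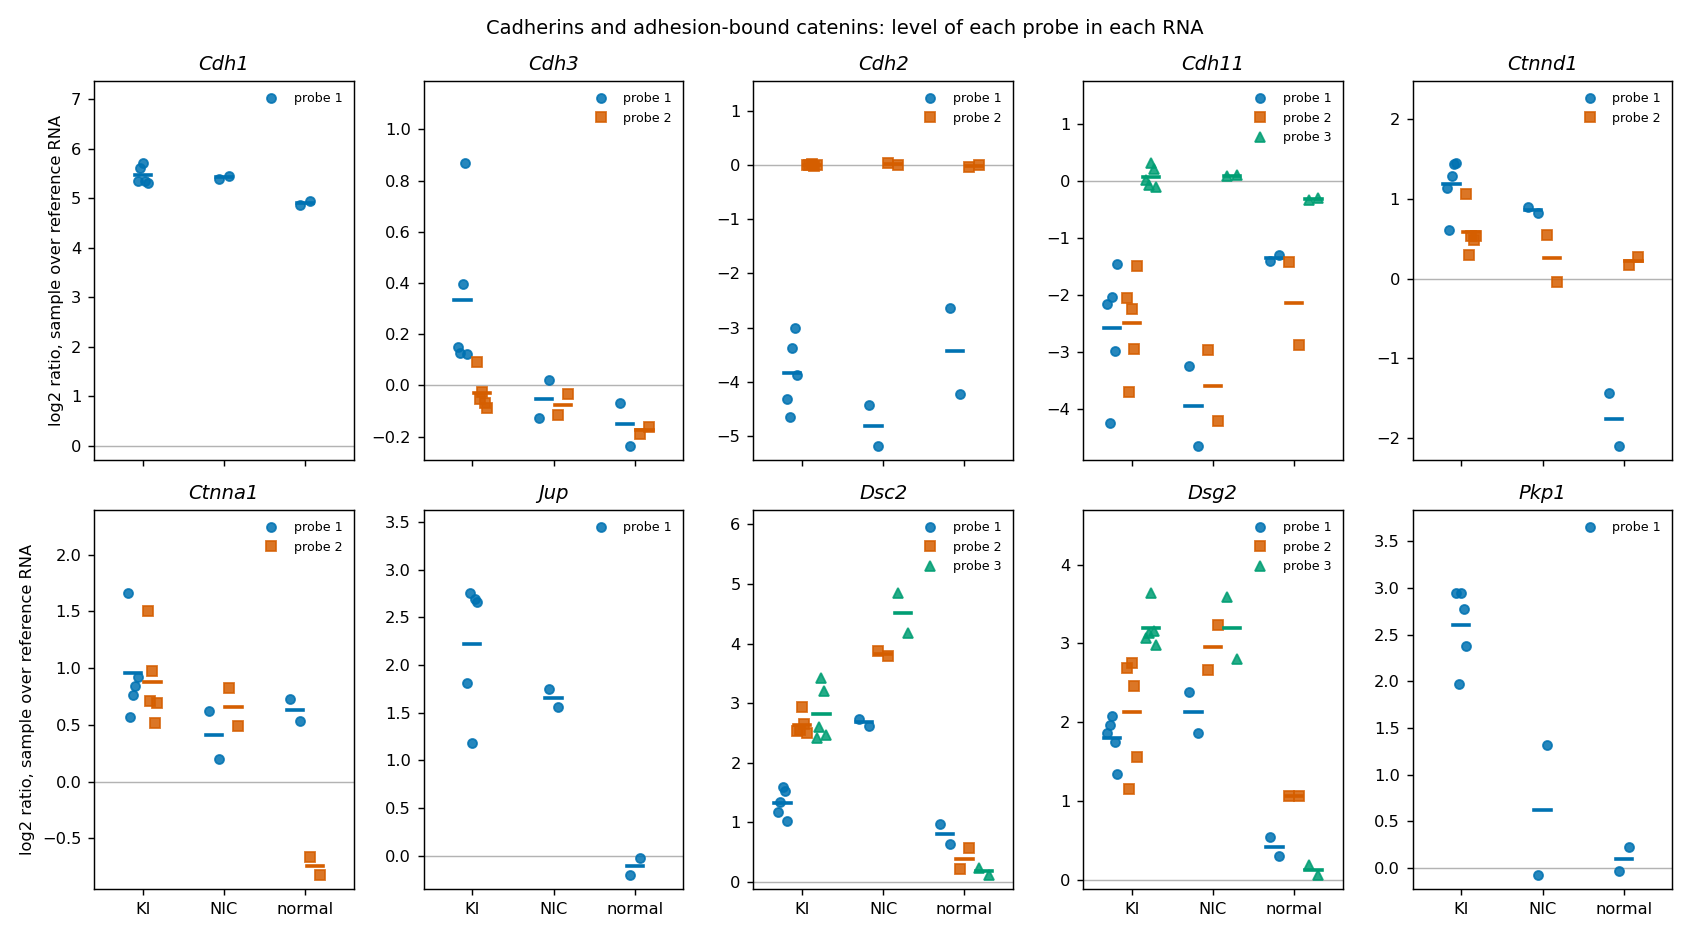
Level of every member probe in every RNA sample, as the log2 ratio of sample over reference RNA averaged over the 2 dye orientations. Columns are KI tumours (5 RNA samples), NIC pools (2) and normal glands (2), symbols and colours stand for the probes of a gene, short bars are group means, and each panel has its own axis. Dsc2 lies highest in NIC pools, Pkp1 lies highest in KI tumours, and probes of Ctnna1, Ctnnd1 and Cdh11 show unlike patterns within a gene.

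**Figure D2:**
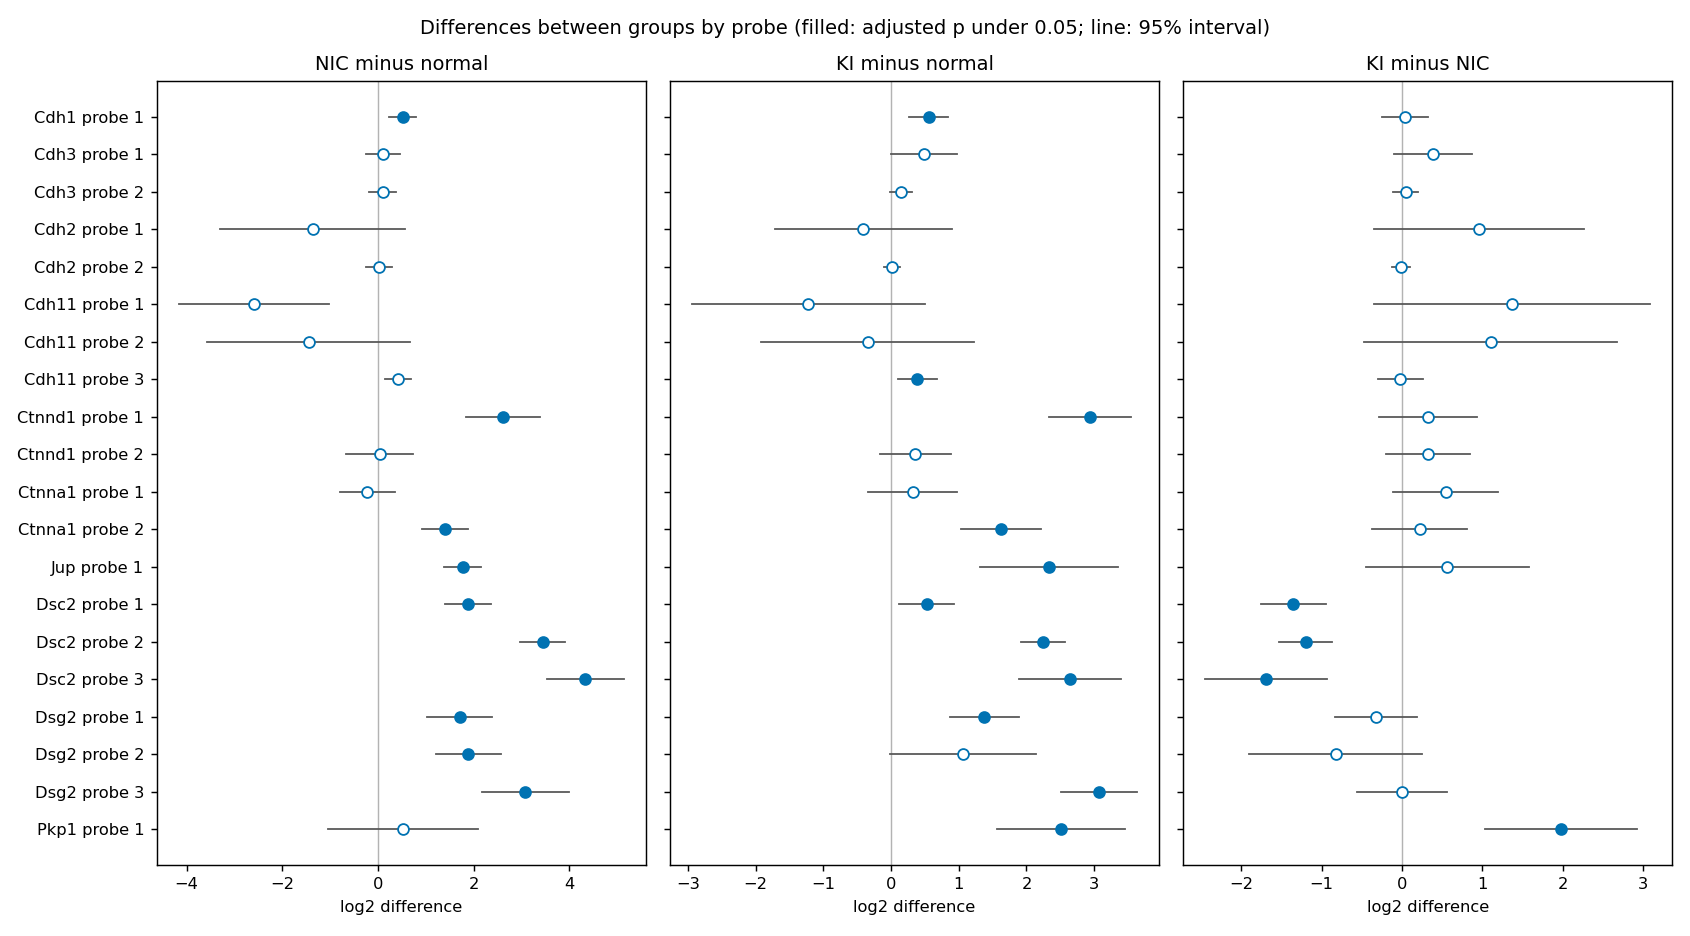
Log2 difference between group means for each of the 20 member probes in the 3 comparisons, with the 95% interval of the limma fit as a line. Filled points have an adjusted p under 0.05; 10, 11 and 4 points are filled, and the only filled points left of 0 are the 3 Dsc2 probes in KI minus NIC.

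Cdh1 encodes E-cadherin, the main cadherin of the adherens junction in epithelia. Its level was 5.36, 5.62, 5.70, 5.34 and 5.30 in the KI tumours and 5.40 and 5.45 in the NIC pools, against 4.86 and 4.95 in the normal glands. Every tumour RNA lay above both normal glands, and the KI and NIC values overlapped. The KI tumours exceeded the normal glands by 0.56 ± 0.12 (SE), or 1.47-fold (adjusted p = 0.00971). NIC pools exceeded them by 0.52 ± 0.10, or 1.43-fold (adjusted p = 0.0483). KI minus NIC was 0.04 ± 0.12, with a 95% interval from −0.25 to 0.33 (adjusted p = 0.890).

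The rise of Cdh1 was smaller than the gap between the dyes in all RNA samples but normal gland 1. With the sample in Cy5 the level was 6.26, 6.42, 6.54, 6.19 and 5.97 in KI tumours and 5.93 and 6.03 in NIC pools, against 5.10 and 5.35 in normal glands. With the sample in Cy3 it was 4.45, 4.81, 4.86, 4.49 and 4.64 in KI tumours and 4.87 and 4.87 in NIC pools, against 4.62 and 4.55 in normal glands. The Cy5 value was the higher in all 9 RNA samples, and the gap was 1.33 to 1.81 in KI tumours and 1.06 to 1.16 in NIC pools, against 0.47 to 0.79 in normal glands. In Cy3 the KI and normal values overlapped. KI minus normal was 1.05 from the Cy5 arrays alone (adjusted p = 0.00211) and 0.06 from the Cy3 arrays alone (adjusted p = 0.734). For NIC minus normal these values were 0.76 (adjusted p = 0.0442) and 0.28 (adjusted p = 0.218).

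The size of the Cdh1 difference also moved with the values used for the KI arrays. From the scanner intensities after loess, KI minus normal was 0.13 (adjusted p = 0.330), and from the scanner's own log ratio it was 0.30 (adjusted p = 0.0560). With the array columns brought to 1 spread, it was 3.05 for KI tumours and 2.47 for NIC pools, and with quantile normalization 0.95 for KI tumours. Bringing columns to 1 spread multiplies all values of a column by 1 factor, and so moves levels far from 0 the most. The interquartile range was 0.76 to 0.97 in the normal gland columns and 0.42 to 0.56 in the tumour columns. From the KI arrays of the larger image extraction day alone, which leaves KI tumour 2 its Cy5 array and KI tumour 3 its Cy3 array, it was 0.55 (adjusted p = 0.271). Without normal gland 1, the KI difference was 0.51 and no longer called (adjusted p = 0.0610). Over all alternatives tried, the KI difference of Cdh1 was positive and held its call in 13 of 19, and the NIC difference was positive and held its call in 6 of 13. Some of these settings, such as 1 probe or the probe mean per gene, leave the difference of Cdh1 unchanged by construction.

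**Figure D3:**
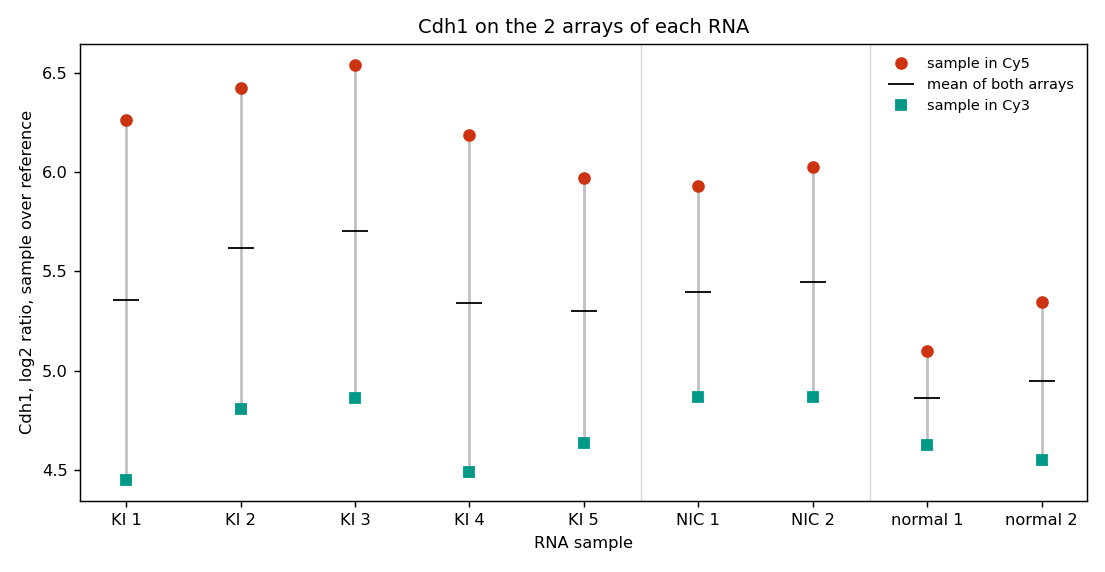
Cdh1 level on the 2 arrays of each RNA sample, with the log2 ratio of sample over reference on the vertical axis and KI, NIC and normal RNA samples from left to right. Circles are arrays with the sample in Cy5, squares arrays with the sample in Cy3, and bars their mean; the Cy5 value is the higher in all 9 RNA samples, and the Cy3 values of KI tumours reach from 4.45 to 4.86 around the normal values of 4.62 and 4.55.

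Among 19099 ranked genes, those whose level ran most like Cdh1 over the 9 RNA samples were Abcg8 (Pearson r = 0.960), Trim25 (0.956), Rnpep (0.950), C2cd5 (0.950) and Hapln3 (0.949). These points share arrays and the same split of tumours from normal glands, and the likeness is a description. Abcg8 averaged −0.05 in KI tumours and −0.03 in NIC pools, against −0.36 in normal glands. Trim25 averaged 1.25 in KI tumours and 1.03 in NIC pools, against −0.85 in normal glands.

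Cdh3 encodes P-cadherin, which in the mammary gland marks the myoepithelial layer. Its probe 1 was at 0.15, 0.13, 0.39, 0.87 and 0.12 in KI tumours and at −0.13 and 0.02 in NIC pools, against −0.07 and −0.24 in normal glands. All KI tumours lay above the other RNA samples, KI tumour 4 by the widest margin, but the difference from normal, 0.48 ± 0.21, was not called (adjusted p = 0.0986). Without KI tumour 4 it was 0.35 and was called (adjusted p = 0.0456). KI minus NIC was 0.38 ± 0.21 (adjusted p = 0.326), and NIC minus normal was 0.10 ± 0.12 (adjusted p = 0.593). Probe 2 differed by 0.15 ± 0.07 for KI minus normal (adjusted p = 0.115), and by 0.10 and 0.05 for NIC minus normal and KI minus NIC. With the sample in Cy5 alone, probe 2 was 0.33 higher in KI tumours than in normal glands (adjusted p = 0.0225).

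Cdh11 and Cdh2 encode the cadherins of mesenchymal and neural cells. Cdh11 probe 1 was at −2.15, −4.25, −2.03, −2.97 and −1.45 in KI tumours and at −3.24 and −4.64 in NIC pools, against −1.40 and −1.30 in normal glands. Every tumour RNA lay below both glands, and KI tumour 5 came close to them. NIC minus normal was −2.59 ± 0.54, a 6.02-fold lower mean that was not called (adjusted p = 0.0558). KI minus normal was −1.22 ± 0.73 (adjusted p = 0.221), and KI minus NIC was 1.37 ± 0.73 (adjusted p = 0.321).

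The NIC difference of Cdh11 probe 1 lay near the threshold, and 4 alternative settings called it. It was −2.84 from the Cy3 arrays alone (adjusted p = 0.0349) and −3.34 with the columns brought to 1 spread (adjusted p = 0.0382). Among probes above the median signal alone the adjusted p was 0.0232, and with all arrays and the RNA as a random block it was 0.00275.

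Cdh11 probe 2 followed probe 1 in the tumours. It was at −2.06, −3.70, −2.24, −2.94 and −1.49 in KI tumours and at −2.97 and −4.21 in NIC pools, against −1.41 and −2.87 in normal glands. Here the normal glands lay apart from each other, and normal gland 2 overlapped the KI tumours. In that gland, the dye pair itself read −1.87 with Cy5 and −3.87 with Cy3. The differences were −1.45 ± 0.73 for NIC minus normal (adjusted p = 0.236), −0.34 ± 0.67 for KI minus normal (adjusted p = 0.715) and 1.10 ± 0.67 for KI minus NIC (adjusted p = 0.386).

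Cdh11 probe 3 went the other way. It was at 0.02, −0.06, 0.32, 0.22 and −0.10 in KI tumours and at 0.09 and 0.11 in NIC pools, against −0.34 and −0.28 in normal glands. All tumour RNA samples lay above both glands. The difference was 0.39 ± 0.12 for KI tumours, which was called (adjusted p = 0.0350), and 0.41 ± 0.09 for NIC pools, which was not (adjusted p = 0.0640). Leaving out normal gland 1, normal gland 2, KI tumour 1 or KI tumour 4 ended the KI call, with differences of 0.36, 0.42, 0.40 and 0.35 and adjusted p of 0.145, 0.107, 0.0512 and 0.0645. The 3 probes of Cdh11 thus gave no common direction.

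Probes 1 and 2 of Cdh11 had the widest spread among KI tumours of all member probes. The SD over the 5 tumours was 1.09 for probe 1 and 0.86 for probe 2, more than for 98.3% and 96.7% of all probes. For Cdh11 probe 3 it was 0.18, more than for 54.4% of all probes. The median level of 10 fibroblast markers was −0.38, −1.53, 0.51, −0.88 and 0.36 in KI tumours 1 to 5 and −0.42 and −1.72 in NIC pools 1 and 2, against 1.94 and 1.73 in normal glands. Of these markers none rose, and 4 fell in KI tumours and 5 in NIC pools, against the normal glands. Of all genes, 24.8% fell in KI tumours and 9.52% in NIC pools. KI tumour 2 and NIC pool 2, which had the lowest fibroblast medians, also had the lowest Cdh11 levels on probes 1 and 2 in their groups. The part of fibroblast content in the Cdh11 levels was not tested.

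Cdh2 probe 1 was at −4.30, −4.65, −3.37, −3.01 and −3.87 in KI tumours and at −4.43 and −5.17 in NIC pools, against −2.64 and −4.22 in normal glands. The normal glands differed from each other by more than the group means did, and the KI tumours overlapped both other groups. The differences were −0.41 ± 0.56 for KI minus normal (adjusted p = 0.595), −1.37 ± 0.66 for NIC minus normal (adjusted p = 0.223) and 0.96 ± 0.56 for KI minus NIC (adjusted p = 0.363). Their 95% intervals ran from −1.71 to 0.90, from −3.30 to 0.57 and from −0.35 to 2.27. With the columns brought to 1 spread, probe 1 was called lower in KI tumours (−2.19, adjusted p = 0.0179) and in NIC pools (−2.87, adjusted p = 0.0392). With the KI arrays taken from scanner intensities, Cdh2 probe 1 was called 1.87 higher in KI tumours than in NIC pools (adjusted p = 0.0307). The NIC arrays kept their deposited values in that setting, so the call compares values processed in unlike ways. Cdh2 probe 2 had a mean log2 signal of 6.15 on the KI arrays, the lowest of the 20, and its level differed by at most 0.02 between group means.

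**Figure D4:**
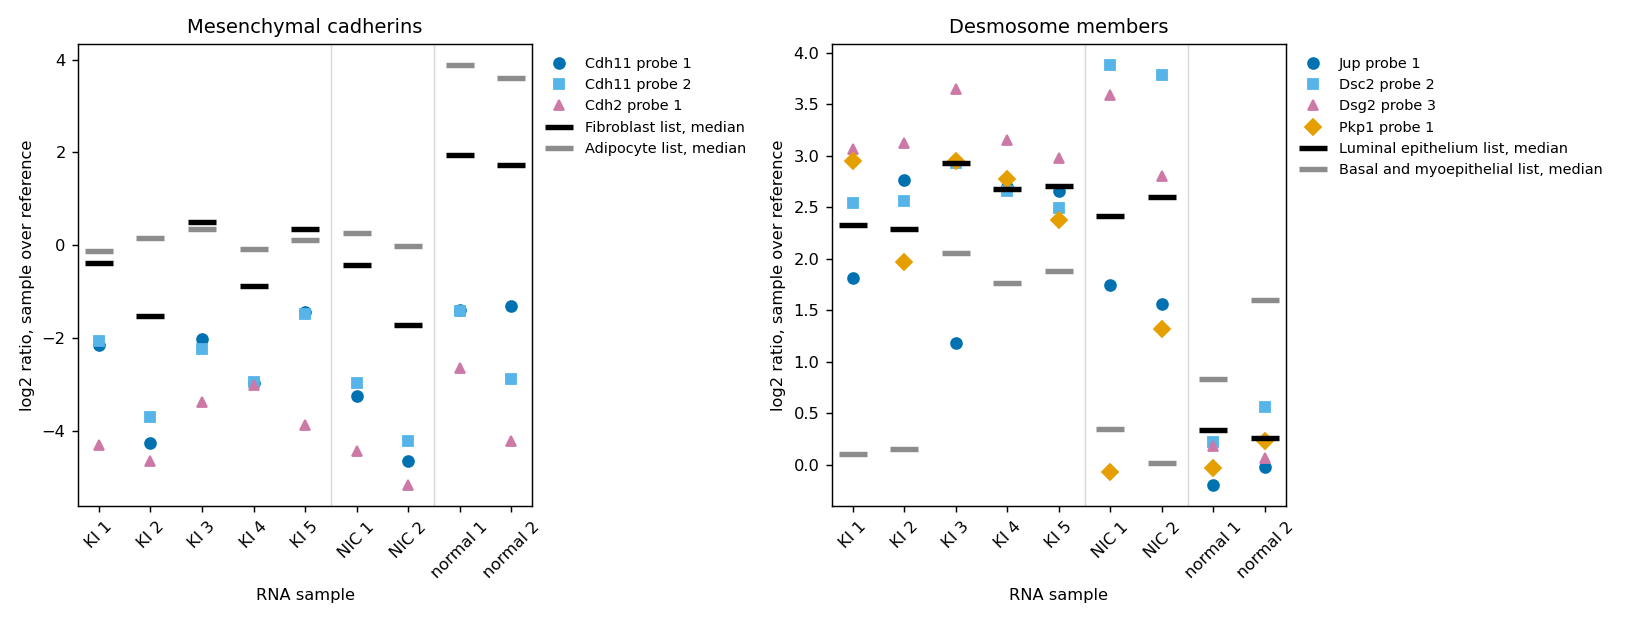
Members beside cell type marker lists in each RNA sample, KI tumours left, then NIC pools, then normal glands, with the log2 ratio of sample over reference on the vertical axes. Symbols are single member probes and bars are list medians; the left panel shows the low Cdh11 values of KI 2 and NIC 2 beside their low fibroblast medians, and the right panel shows Jup, Dsc2 and Dsg2 above the normal glands in all 7 tumour RNA samples, and Pkp1 in all but NIC 1. Heights of different probes are not comparable.

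Ctnnd1 encodes p120-catenin, which binds the juxtamembrane part of the cadherin tail and slows its uptake from the membrane. Probe 1 was at 1.13, 0.60, 1.28, 1.44 and 1.44 in KI tumours and at 0.89 and 0.82 in NIC pools, against −1.44 and −2.09 in normal glands. Tumours and normal glands lay far apart, with no overlap and a gap wider than the spread within any group. The probe rose by 2.94 ± 0.26 in KI tumours, or 7.68-fold (adjusted p = 0.000307), and by 2.62 ± 0.26 in NIC pools, or 6.14-fold (adjusted p = 0.0189). KI minus NIC was 0.32 ± 0.26 (adjusted p = 0.524). The dyes of a pair differed by at most 0.31.

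Ctnnd1 probe 2 did not show this rise. It was at 1.06, 0.29, 0.53, 0.48 and 0.53 in KI tumours and at 0.55 and −0.04 in NIC pools, against 0.17 and 0.27 in normal glands. The KI tumours lay just above both glands, and the NIC pools fell on either side of them. The differences were 0.36 ± 0.22 for KI minus normal (adjusted p = 0.236) and 0.03 ± 0.24 for NIC minus normal (adjusted p = 0.930). Their 95% intervals, −0.16 to 0.88 and −0.67 to 0.74, lay below those of probe 1, which ran from 2.33 to 3.55 and from 1.85 to 3.39. Averaged over both probes, Ctnnd1 was 1.65 higher in KI tumours and 1.33 higher in NIC pools, both called (adjusted p = 0.000619 and 0.0253). Both probes carry the same gene name in the files, and the stretch of transcript that each reads was not analysed here.

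Ctnna1 encodes αE-catenin, which couples the cadherin complex to actin filaments. Its brighter probe, 1, was at 1.67, 0.57, 0.76, 0.84 and 0.93 in KI tumours and at 0.62 and 0.20 in NIC pools, against 0.73 and 0.53 in normal glands. All 3 groups overlapped, and KI tumour 1 stood highest. The differences were 0.32 ± 0.28 for KI minus normal (adjusted p = 0.392), −0.22 ± 0.20 for NIC minus normal (adjusted p = 0.472) and 0.54 ± 0.28 for KI minus NIC (adjusted p = 0.304).

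Ctnna1 probe 2, listed as 2010010M04Rik, was at 1.50, 0.71, 0.97, 0.52 and 0.70 in KI tumours and at 0.83 and 0.49 in NIC pools, against −0.66 and −0.82 in normal glands. No tumour RNA came near the glands. It rose by 1.62 ± 0.25 in KI tumours, or 3.07-fold (adjusted p = 0.00242), and by 1.40 ± 0.17 in NIC pools, or 2.64-fold (adjusted p = 0.0228). From the Cy3 arrays alone the NIC difference was 1.63 and just missed the threshold (adjusted p = 0.0533). The mean over both probes was 0.97 higher in KI tumours than in normal glands (adjusted p = 0.0186), and 0.59 higher in NIC pools, which was not called (adjusted p = 0.0949).

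Jup encodes plakoglobin, also called γ-catenin, which binds classical and desmosomal cadherins. Its probe was at 1.81, 2.76, 1.18, 2.69 and 2.66 in KI tumours and at 1.75 and 1.56 in NIC pools, against −0.20 and −0.02 in normal glands. The tumours again lay clear of the glands, and the KI tumours spread around the NIC pools, with KI tumours 1 and 3 below the other three. Jup rose by 2.33 ± 0.43 in KI tumours, or 5.04-fold (adjusted p = 0.00486), and by 1.77 ± 0.13 in NIC pools, or 3.40-fold (adjusted p = 0.0130). KI minus NIC was 0.56 ± 0.43, with a 95% interval from −0.45 to 1.58 (adjusted p = 0.502). The SD of Jup over KI tumours, 0.70, was above that of 94.5% of all probes.

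The sequence before the start of Ctnnd1 and of Jup is shown because Jup and probe 1 of Ctnnd1, though not its probe 2, rose in both tumour kinds, and they were the members listed in the promoter table used here. The sequences are from RefSeq (build GRCm38.p6) on the strand of the gene, at chr2:84658978-84659227 (minus strand, 250 bases) for Ctnnd1 and chr11:100397840-100398040 (minus strand, 201 bases) for Jup. They end at the outermost annotated start, so no transcribed base is included. Capitals mark CCAAT boxes (CCAAT, or ATTGG on the other strand) and the GC box (GGGCGG, or CCGCCC on the other strand).
Ctnnd1: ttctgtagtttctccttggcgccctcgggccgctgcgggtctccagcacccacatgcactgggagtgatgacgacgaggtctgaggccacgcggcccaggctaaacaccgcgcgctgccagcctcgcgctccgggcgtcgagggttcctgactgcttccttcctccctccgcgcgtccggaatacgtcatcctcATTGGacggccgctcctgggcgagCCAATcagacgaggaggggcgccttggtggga
Jup: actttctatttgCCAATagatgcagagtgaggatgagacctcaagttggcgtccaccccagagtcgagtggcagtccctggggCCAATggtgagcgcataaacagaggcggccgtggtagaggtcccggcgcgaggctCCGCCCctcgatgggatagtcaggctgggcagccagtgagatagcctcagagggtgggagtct
Both stretches hold 2 CCAAT boxes, and Jup holds 1 GC box. Of 32851 promoters, 33.8% hold a CCAAT box in a stretch of 250 bases and 28.6% in a stretch of 201 bases on either strand, and 24.8% hold a GC box in 201 bases. The letters CACCTG, an E-box form that Snail and Zeb repressors are known to bind, were in neither stretch, where 17.2% of promoters hold them in 250 bases and 14.5% in 201 bases. These matches describe the letters of the windows.

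Dsc2 encodes desmocollin-2, a desmosomal cadherin of simple and stratified epithelia, and its probe 3 had the largest rise of all member probes in NIC pools. The reference channel of probe 3 was above background on only 5 of the 10 KI arrays, and is not known for the NIC and normal arrays. Probe 1 was at 1.18, 1.34, 1.60, 1.52 and 1.02 in KI tumours and at 2.74 and 2.62 in NIC pools, against 0.98 and 0.63 in normal glands. Probe 2 was at 2.54, 2.56, 2.93, 2.65 and 2.49 in KI tumours and at 3.88 and 3.79 in NIC pools, against 0.22 and 0.56 in normal glands. Probe 3 was at 2.42, 2.60, 3.43, 3.21 and 2.47 in KI tumours and at 4.86 and 4.17 in NIC pools, against 0.24 and 0.12 in normal glands. On all 3 probes the NIC pools lay highest, the KI tumours between and the normal glands lowest, with no overlap between groups.

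In NIC pools Dsc2 rose by 1.88 ± 0.17 (3.67-fold), 3.44 ± 0.16 (10.9-fold) and 4.33 ± 0.28 (20.2-fold) on probes 1, 2 and 3 (adjusted p = 0.0156, 0.00936 and 0.0113). In KI tumours it rose by 0.53 ± 0.17 (1.44-fold), 2.24 ± 0.14 (4.73-fold) and 2.64 ± 0.32 (6.25-fold) on the same probes (adjusted p = 0.0441, 8.79e-05 and 0.000958). The direction was shared by the probes and the size was not. The KI rise on probe 1 lost its call on leaving out any single RNA sample except KI tumour 5, with differences from 0.35 to 0.70. From the scanner intensities after loess probe 2 was 1.34 higher in KI tumours (adjusted p = 0.000248). There probe 1 was at 0.07 (adjusted p = 0.694), and from the scanner's own log ratio at 0.27 (adjusted p = 0.217). With the columns brought to 1 spread probe 1 was at 1.03 and called (adjusted p = 0.00876).

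Dsc2 was lower in KI tumours than in NIC pools on each probe. The differences were −1.35 ± 0.17, −1.20 ± 0.14 and −1.69 ± 0.32 on probes 1, 2 and 3, or 2.55-fold, 2.29-fold and 3.23-fold lower (adjusted p = 0.00727, 0.00544 and 0.0261). Probe 2 was called without either NIC pool, at −1.15 without pool 1 (adjusted p = 0.0469) and −1.24 without pool 2 (adjusted p = 0.0297). Without NIC pool 1, probe 1 was at −1.29 and probe 3 at −1.35, and neither was called (adjusted p = 0.0603 and 0.172). Probe 3 was also not called without NIC pool 2 (−2.03, adjusted p = 0.0569) or KI tumour 5 (−1.60, adjusted p = 0.0591). From the scanner's own log ratio, probe 3 was at −0.49 (adjusted p = 0.405), and from the scanner intensities probe 2 was at −2.10 (adjusted p = 0.000204). Both settings changed the KI arrays alone and left the NIC arrays at their deposited values. The comparison of KI tumours with NIC pools crosses the value tables, as described above.

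Dsg2 encodes desmoglein-2, the partner of desmocollin-2 in simple epithelia. Probe 1 was at 1.86, 1.96, 2.07, 1.75 and 1.34 in KI tumours and at 2.39 and 1.86 in NIC pools, against 0.54 and 0.30 in normal glands. Probe 2 was at 2.69, 1.16, 2.75, 2.46 and 1.56 in KI tumours and at 2.66 and 3.24 in NIC pools, against 1.06 and 1.06 in normal glands. Probe 3 was at 3.07, 3.13, 3.65, 3.15 and 2.97 in KI tumours and at 3.59 and 2.80 in NIC pools, against 0.18 and 0.06 in normal glands. On all 3 probes each tumour RNA exceeded both glands, and KI tumours and NIC pools overlapped, although KI tumour 2 came close to the glands on probe 2.

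In NIC pools Dsg2 rose by 1.71 ± 0.24 (3.26-fold), 1.89 ± 0.23 (3.71-fold) and 3.07 ± 0.31 (8.42-fold) on probes 1, 2 and 3 (adjusted p = 0.0288, 0.0246 and 0.0190). From the Cy3 arrays alone the NIC differences of probes 1 and 2 were 1.86 and 2.02 and just missed the threshold (adjusted p = 0.0508 and 0.0560). In KI tumours Dsg2 rose by 1.38 ± 0.22 (2.60-fold) on probe 1 and by 3.07 ± 0.24 (8.40-fold) on probe 3 (adjusted p = 0.00254 and 0.000204). From the scanner intensities the rise on probe 1 was 0.89 (adjusted p = 0.00649). Probe 2 differed by 1.07 ± 0.46 in KI tumours and was not called (adjusted p = 0.101). Without KI tumour 2 it was 1.31 and was called (adjusted p = 0.0273). KI minus NIC was −0.33 ± 0.22, −0.83 ± 0.46 and 0.00 ± 0.24 on the 3 probes, none of them called (adjusted p = 0.433, 0.341 and 0.996). With the KI arrays taken from scanner intensities after loess, all 3 probes were called lower in KI tumours than in NIC pools, at −0.82, −1.57 and −0.96 (adjusted p = 0.0257, 0.0194 and 0.0249). That setting changed the KI arrays alone and left the NIC arrays at their deposited values, so these calls compare values processed in unlike ways.

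Pkp1 encodes plakophilin-1, a desmosomal plaque protein best known from stratified epithelia such as the epidermis. It was at 2.95, 1.97, 2.95, 2.78 and 2.37 in KI tumours and at −0.07 and 1.32 in NIC pools, against −0.03 and 0.23 in normal glands. The KI tumours stood above all other RNA samples, NIC pool 1 lay at the level of the normal glands, and NIC pool 2 lay between. Pkp1 rose by 2.50 ± 0.40 in KI tumours over normal glands, or 5.67-fold (adjusted p = 0.00273). NIC minus normal was 0.52 ± 0.54, with a 95% interval from −1.05 to 2.10 (adjusted p = 0.526). KI minus NIC was 1.98 ± 0.40, or 3.95-fold higher (adjusted p = 0.0320).

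The higher Pkp1 level in KI tumours than in NIC pools depended on single RNA samples. Without NIC pool 1 it was 1.29 and not called (adjusted p = 0.167), and without NIC pool 2 it was 2.68 (adjusted p = 0.0215). It also missed the threshold without KI tumour 1, 3, 4 or 5, at differences from 1.89 to 2.04 (adjusted p from 0.0601 to 0.0649). The call held without KI tumour 2 (2.14, adjusted p = 0.0258) and from each dye alone, at 2.20 in Cy5 (adjusted p = 0.0350) and 1.77 in Cy3 (adjusted p = 0.0448).

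Dsc2 and Pkp1 were the only members called between the tumour kinds, and they went in opposite directions. In KI tumours against NIC pools, 3.09% of all genes were higher and 3.43% lower. Of 11 basal and myoepithelial markers, 1 was higher and none was lower in that comparison. That marker was Krt14, a keratin of basal and stratified epithelium, with a mean of 2.69 in KI tumours and −0.16 in NIC pools (2.85 ± 0.23, adjusted p = 0.00195). The median level of the 11 markers was 0.11, 0.16, 2.06, 1.76 and 1.88 in KI tumours 1 to 5 and 0.35 and 0.02 in NIC pools, against 0.83 and 1.60 in normal glands. KI tumours 1 and 2 were low on that median, and of them only KI tumour 2 was at the low end for Pkp1. Of 6 epidermal markers, 1 was lower in KI tumours than in NIC pools (Krt1, −0.34 ± 0.08, adjusted p = 0.0394), and the list medians ran from −0.04 to 0.27 in KI tumours and from −0.06 to 0.14 in NIC pools. The part of basal cell content in the Pkp1 level was not tested.

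On their brightest probe Cdh1, Ctnnd1, Jup, Dsc2 and Dsg2 were called higher in both tumour kinds. Ctnna1 was called in both on its dimmer probe only. The share of all genes called higher in both tumour kinds was not counted. Most luminal epithelial markers were also called higher in the tumours. Of the 12 luminal markers 9 rose in NIC pools and 11 in KI tumours, and none fell. Over all genes, 8.47% rose in NIC pools and 17.7% in KI tumours. Epcam, an epithelial adhesion protein, rose by 3.37 ± 0.33 in KI tumours and by 3.87 ± 0.54 in NIC pools (adjusted p = 0.000443 and 0.0296). Of 11 adipocyte markers 8 fell and none rose in both comparisons, where 9.52% of all genes fell in NIC pools and 24.8% in KI tumours. Between the tumour kinds 2 luminal markers, Krt19 (3.19 ± 0.64) and Elf3 (1.28 ± 0.24), were higher in KI tumours and none was lower (adjusted p = 0.0306 and 0.0235). Of all genes, 3.09% were higher and 3.43% lower there. The part of epithelial content in the rise of the members was not tested.

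Among 34 other genes of adherens junctions and desmosomes, 5 rose and 3 fell in NIC pools, and 7 rose and 4 fell in KI tumours. Over all genes, 8.47% rose and 9.52% fell in NIC pools, and 17.7% rose and 24.8% fell in KI tumours. Their median difference was 0.04 in NIC pools and −0.03 in KI tumours. Perp, a tetraspan protein of desmosomes, rose by 2.77 ± 0.34 in NIC pools and by 2.33 ± 0.55 in KI tumours (adjusted p = 0.0244 and 0.0131). The plaque genes Evpl, encoding envoplakin, and Pkp3, encoding plakophilin-3, rose by 1.61 ± 0.18 and 1.51 ± 0.29 in NIC pools (adjusted p = 0.0207 and 0.0493). In KI tumours they rose by 1.30 ± 0.17 and 1.54 ± 0.21 (adjusted p = 0.00134 and 0.00139). Pkp3 in NIC pools missed the threshold without normal gland 1 (1.16), from the Cy3 arrays alone (1.31, adjusted p = 0.139) and with quantile normalization (1.35, adjusted p = 0.0519). Perp and Evpl in NIC pools also missed it from the Cy3 arrays alone (2.66 and 1.50, adjusted p = 0.0539 and 0.0548). Vcl, encoding vinculin, rose by 1.17 ± 0.38 in KI tumours (adjusted p = 0.0402), but was at 0.34 without normal gland 2 (adjusted p = 0.150) and at 2.00 without normal gland 1 (adjusted p = 0.000679). It missed the threshold without any single KI tumour (adjusted p from 0.0618 to 0.0722). Perp in KI tumours missed it without normal gland 1 (1.95, adjusted p = 0.0937).

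Cdh5, the endothelial cadherin gene, fell by 1.56 in NIC pools (SE 0.12, adjusted p = 0.0140). A dimmer Cdh5 probe was at −0.56. The fall on the brightest probe was not called from the Cy5 arrays alone (−1.88, adjusted p = 0.0660) or the Cy3 arrays alone (−1.24, adjusted p = 0.0994). Averaged over its probes, Cdh5 was at −1.06 and not called (adjusted p = 0.0893). With the columns brought to 1 spread the difference on the brightest probe was 0.07 (adjusted p = 0.724). Of 8 endothelial markers 4 fell in NIC pools, where 9.52% of all genes fell, and 2 in KI tumours, where 24.8% fell, and none rose. Between the tumour kinds, Dsg1c, a desmoglein-1 gene, was lower in KI tumours by 1.91 ± 0.31 on the log2 scale (adjusted p = 0.0146), and by 1.23 without NIC pool 2 (adjusted p = 0.00567). Afdn, encoding the junction protein afadin, was higher there by 0.73 ± 0.14 (adjusted p = 0.0259), whereas the dimmer 5 Afdn probes lay between −0.24 and 0.18. It was not called without NIC pool 1, NIC pool 2 or KI tumour 5 (0.78, 0.67 and 0.74, adjusted p = 0.114, 0.151 and 0.0564).

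Ctnnb1, encoding β-catenin, the catenin that shares the cadherin tail with plakoglobin and also carries Wnt signals, was not called on its brightest probe. That probe differed by 0.59 ± 0.41 for KI minus normal, 0.25 ± 0.21 for NIC minus normal and 0.35 ± 0.41 for KI minus NIC (adjusted p = 0.283, 0.449 and 0.685). One of its other 2 probes was called in both tumour kinds, at 0.89 in KI tumours (adjusted p = 0.00602) and 1.41 in NIC pools (adjusted p = 0.0124). The remaining one was at 1.52 in KI tumours and 1.24 in NIC pools and was not called (adjusted p = 0.0669 and 0.334).

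Of 6 genes for transcription factors known as repressors of E-cadherin, 4 fell in KI tumours and 5 in NIC pools, and none rose over the normal glands. Over all genes, 24.8% fell in KI tumours and 9.52% in NIC pools. In KI tumours Twist2 fell by 2.73 (SE 0.32), Snai2 by 2.53 (SE 0.73), Zeb1 by 2.09 (SE 0.26) and Zeb2 by 1.61 (SE 0.12) (adjusted p = 0.000859, 0.0271, 0.00102 and 0.000152). The largest falls in NIC pools were those of Snai2, by 3.95 (SE 0.17), Twist1, by 3.82 (SE 0.28), Twist2, by 2.95 (SE 0.35), and Zeb1, by 2.56 (SE 0.16) (adjusted p = 0.00936, 0.0130, 0.0228 and 0.0113). The fall of Snai2 in KI tumours was not called without normal gland 1, normal gland 2 or KI tumour 1 (adjusted p = 0.112, 0.108 and 0.0503). Zeb2 was 0.80 ± 0.12 higher in KI tumours than in NIC pools (adjusted p = 0.0107), where the dimmer 4 probes of Zeb2 ranged from 0.18 to 1.75, and without NIC pool 1 it was at 0.74 and not called (adjusted p = 0.0850). These genes are also expressed by fibroblasts, whose markers fell in the same comparisons, and the part of fibroblast content in their levels was not tested.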

How the data were processed

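Messenger RNA of 9 samples was measured on 18 two-colour Agilent arrays. The values used are log2 ratios per spot from the deposited value tables, 1 for normal and NIC arrays and 1 for KI arrays; RMA is named, with no role, in the submitters' processing notes, and the genome build is not given in the sources used here. The KI scanner files hold, per the file headers, spot intensity columns, background and saturation flags (coded 0 or 1, another kind of value) and a log10 ratio by Agilent's software. KI table columns, turned to sample over reference, correlated with that ratio at r = 0.941 to 0.953. No scanner files of normal and NIC arrays were used, so their direction, probe layout and scale follow the KI table by analogy. On some KI arrays the labelling protocol names the opposite dye from the label field, which was followed.

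Control spots were left out, spots of a probe averaged, and the 2 arrays of an RNA averaged, since they hold the same extract. Same-RNA arrays with exchanged dyes correlated at r = 0.824 to 0.942. The limma test (limma 3.58.1, R 4.3.3, two-sided, Benjamini-Hochberg over 41174 probes, threshold 0.05) compared NIC with normal on their own 4 RNA samples, and KI with each from 1 fit of all 9. The script was tested on simulated data. All probes of the members were described; of the other lists, up to 4 called genes per comparison with the largest difference, plus Ctnnb1, and 5 genes most like Cdh1. Members and lists were chosen with earlier results of these data known. No filter on dim probes was applied. Under every setting but the probe mean, called member genes were counted on the brightest probe of each gene only. Alternatives were each dye alone, leaving out each RNA, all arrays with the RNA as a random block, scaling to 1 median absolute deviation (called 1 spread in the text), quantile normalization, a signal filter, 1 probe or the probe mean per gene, another set of samples, scanner intensities (normexp, offset 50, and loess) or the scanner's log ratio for KI arrays, and the larger image extraction day alone, which left out 2 arrays. The number of arrays limits the precision.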

Additional observations from a re-analysis of the deposited data

Results flagged for a closer look

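Of the 20 member probes tested for a KI tumour that lay far from the other 4, 1 was picked out, which is the 1 in 20 that chance gives. Dsg2 probe 3 was at 3.65 in KI tumour 3, while the next highest KI tumour was at 3.15 and the lowest at 2.97. The gap between the highest and the next made up 0.733 of the range over the 5 tumours.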

How the results depend on the processing

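For NIC against normal, leaving out 1 RNA gave 0 to 3 called member genes of 10, against 5 with all RNA samples, and 0 to 5051 called probes, against 7594. Without NIC pool 1 or NIC pool 2 limma made 0 calls, although 9364 and 10592 probes, 6 and 5 member genes among them, had an unadjusted p under 0.05. For KI against normal the ranges were 4 to 6 member genes, against 6, and 12934 to 16786 probes, against 17391. For KI against NIC they were 0 to 2 member genes, against 2, and 821 to 3157 probes, against 2878; without NIC pool 1 no member gene was called, and 2 had an unadjusted p under 0.05.

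All counts of called member genes in this section, those above included, took only the brightest probe of each gene. A gene called only on a dimmer probe, such as Dsc2 on probe 2 without NIC pool 1, was not counted. Cy3 arrays alone gave 2905 called probes for NIC against normal. All arrays with the RNA as a random block gave 15384 for NIC against normal and 6073 for KI against NIC. All 9 RNA samples in the NIC fit gave 15060. With probes above the median signal only, which left 20587 probes and 7 member genes to test, 3 member genes and 4966 probes were called for NIC against normal, 9668 probes for KI against normal, and 1 member gene and 1287 probes for KI against NIC. Columns scaled to 1 spread gave 11250 for KI against normal. Quantile normalization gave 1561, and 1 probe per gene 1793, for KI against NIC. KI arrays from scanner intensities, set against NIC arrays at their deposited values, gave 5 member genes and 6028 probes for KI against NIC.

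Cdh5 turned to 0.0655 for NIC against normal with columns scaled to 1 spread, and Cdh1 turned to −0.39 for KI against NIC from scanner intensities (adjusted p = 0.0382). The cause of these changes was not tested, beyond what some settings do by construction. Some hold fewer probes or samples, scaling to 1 spread multiplies whole columns, and the scanner settings change the KI arrays alone.

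Among single member probes, leaving out 1 RNA ended 30 of 40 calls for NIC against normal, 11 of 77 for KI against normal and 9 of 28 for KI against NIC. The other settings ended 6 of 74, 14 of 117 and 3 of 41 calls and added 6, 6 and 4. With 2 NIC and 2 normal RNA samples, a missed threshold does not show equal levels. No paired analysis was possible because the replicate numbers name separate RNA samples in each group. Signal over background is not known here for the normal and NIC arrays.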
